A study of Homo sapiens with 12 samples.

Results

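The 10 genes described here encode secreted inflammatory signals and 1 enzyme: the interleukins IL1A, IL1B and IL6, the IL-6 family cytokine LIF, the chemokines CXCL1, CXCL2, CXCL3, CXCL8 and CCL2, and PTGS2, which makes prostanoid precursors. They were chosen by name, and every array probe whose platform annotation gave one of these symbols was taken, in all 6 groups of arrays. That gave 12 probes of the 47323 on the array, 2 each for CXCL8 and PTGS2 and 1 for each of the others. A filter, detection on at least 2 arrays, kept 11 of the 12, so that 9 of the 10 genes entered the tests, among 11423 genes in all. The gene that did not was CXCL3.

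Messenger RNA was measured on 12 single-colour Illumina bead arrays of the human glioblastoma cell lines DBTRG and U87, in 6 groups of 2 arrays. DBTRG cells were given Y15 at 10 µM or left untreated. U87 cells were given temozolomide (TMZ) with Y15 at 10 µM, Y15 at 10 µM alone, TMZ alone, or nothing, and each exposure lasted 24 h. Y15 blocks FAK, the focal adhesion kinase made from PTK2, which relays signals from integrins. Temozolomide alkylates DNA and is a standard glioblastoma drug. Sample titles put the TMZ dose at 20 µM and the design text puts it at 100 µM, so the dose is not settled here. No label names a vehicle for the untreated cells, no genetic change is named for any group, and each line stands for the tumour of a single person. The extraction protocol speaks of frozen tissue although every sample is labelled as a cell line. Nothing says that the 2 arrays of a group came from separate cultures, and each p-value here rests on the spread between such array pairs, which may be only technical.

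Interleukin 1 (from IL1A or IL1B) signals through receptors that switch on the transcription factor NF-κB and mitogen-activated kinases. These in turn raise transcription of IL6, LIF, the chemokines and PTGS2, and AP-1 and C/EBP factors act on many of the same promoters. The CXC chemokines named here draw neutrophils, CCL2 draws monocytes, and PTGS2 supplies the precursor of prostaglandin E2. In glioblastoma these signals are known for recruiting myeloid cells and for acting back on the tumour cells that release them.

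The arrays detected between 14437 and 16889 probes each, at the authors' detection p under 0.01. Among the U87 arrays, the 2 given Y15 alone detected the fewest, 14437 and 15169. The first DBTRG untreated array, at 15001, lay between these. Replicate arrays correlated at 0.986 to 0.995 across all genes tested. PTK2 messenger RNA itself was lower with Y15, by -0.40 ± 0.12 in DBTRG cells and by -0.52 ± 0.12 in U87 cells on the log2 scale (SE; limma adjusted p = 0.0269 and 0.0139), which does not measure the kinase's activity. Of 10 glioma and astrocyte markers, VIM, NES, EGFR and CD44 were detected on both arrays of every group, while the astrocyte markers GFAP and S100B were not detected on both arrays of any group. Of 10 microglia and macrophage markers, 1 (CD14) was detected on both DBTRG Y15 arrays and 0 on both DBTRG untreated arrays. In U87 cells the numbers were 3 with TMZ and Y15, 2 with Y15, 2 with TMZ and 2 in untreated cells, from CSF1R, AIF1 and CD14. CD14 was detected on both arrays of the 3 groups given Y15 and of no other group, and PTPRC, the general leukocyte marker, was not detected on both arrays of any group. The summed linear level of that list was 308 to 413 on the DBTRG Y15 arrays against 275 to 284 on the DBTRG untreated arrays, and 664 to 700 on the U87 Y15 arrays against 599 to 627 on the U87 untreated arrays. Its part in the cytokine values was not tested. In bulk RNA such as this, fewer cells of a type and less RNA per cell cannot be told apart.

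Y15 was accompanied by higher levels of nearly all of these genes in U87 cells and by a mixed pattern in DBTRG cells. In U87 cells 8 of the 9 genes tested were higher with Y15 than in untreated cells and 0 were lower, where 22.0% of all genes tested were called in either direction with 8.61% higher and 13.4% lower. On the brightest probe of each gene PTGS2 changed 5.29-fold and CXCL2 5.04-fold, the largest of the 9, and the dimmer CXCL8 probe changed 5.14-fold. In DBTRG cells 5 of the 9 were higher with Y15 and 2, CXCL1 and CCL2, were lower, where 37.8% of all genes were called in either direction, 19.4% higher and 18.4% lower. IL1A, CXCL2 and PTGS2 were detected on neither untreated DBTRG array, and IL1B and IL6 on no DBTRG array. Such genes could hardly be called lower with Y15 there, so this DBTRG count leans to higher calls. How far was not tested. With TMZ and Y15 together, 8 of 9 were higher than in untreated U87 cells, where 23.1% of all genes were called with 9.95% higher and 13.2% lower. With TMZ alone 0 of 9 were called by limma, where 0.00875% of all genes were called, and 4 of the 9 had an unadjusted p under 0.05, as did 465 of all genes. The median log2 change of the 9 genes was 1.24 with Y15 in U87 cells, 0.37 with Y15 in DBTRG cells, 1.17 with both agents in U87 cells and -0.19 with TMZ alone. Over all genes tested the same medians were -0.07, 0.01, -0.06 and 0.00. A call here means a Benjamini-Hochberg adjusted p under 0.05 in 1 limma fit of all 12 arrays. The comparisons within U87 cells share the untreated U87 arrays.

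**Figure D1:**
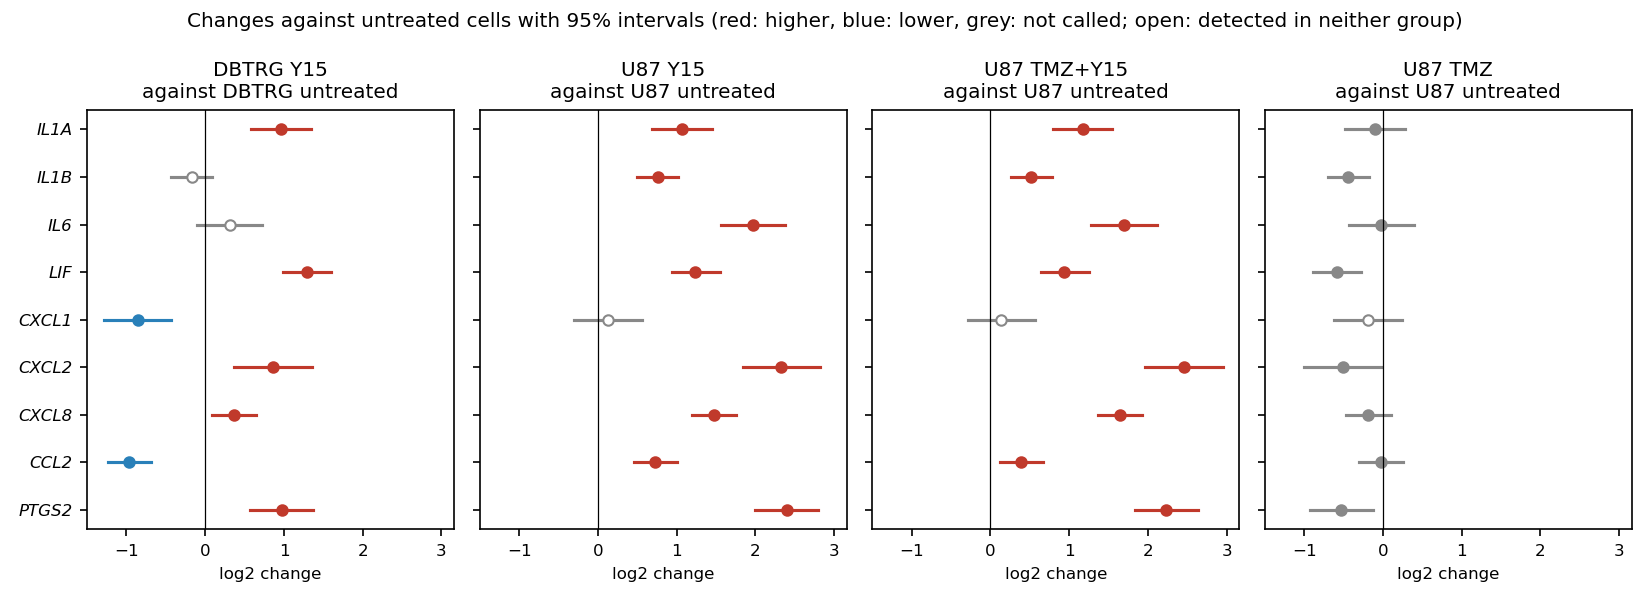
Log2 change of each of the 9 genes tested (x axis) against untreated cells of the same line, with 95% intervals from the limma fit, in 4 panels by treatment. All 9 points lie right of 0 in both U87 panels with Y15, CXCL1, CCL2 and the undetected IL1B lie left of 0 in DBTRG cells, and no gene is called with TMZ alone.

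IL1A and IL1B lie next to each other on chromosome 2 and encode interleukin 1 alpha, active as an unprocessed alarm signal, and interleukin 1 beta, which is released after cleavage. Levels are given as log2 of the background-corrected, quantile-normalized signal, on which 1 unit is a 2-fold difference, and levels of different probes are not compared. IL1A stood at 8.0 and 7.91 on the U87 Y15 arrays, against 6.84 and 6.93 on the U87 untreated arrays. Both Y15 arrays lay above both untreated arrays. The change was 1.07 ± 0.17 (SE, 2.10-fold; limma adjusted p = 0.00185). With TMZ and Y15 together IL1A stood at 8.23 and 7.87, and with TMZ alone at 6.87 and 6.70, the TMZ arrays overlapping the untreated ones.

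In DBTRG cells IL1A was near the limit of detection: it stood at 5.84 and 5.34 on the Y15 arrays, of which only the first was detected, against 4.61 and 4.66 on the untreated arrays, neither of which was detected. The 2 groups did not overlap, and the mean was at least 1.06-fold higher with Y15 (limma adjusted p = 0.00151). Such a bound sets each undetected signal at the array's lowest detected signal or its own, whichever is higher.

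IL1B was detected on all 8 U87 arrays and on no DBTRG array. It stood at 13.26 and 13.23 on the U87 Y15 arrays, against 12.57 and 12.41 on the U87 untreated arrays. The groups were apart, by 0.76 ± 0.12 (1.69-fold; limma adjusted p = 0.00149). With both agents it stood at 13.09 and 12.92 and with TMZ alone at 12.01 and 12.09, below both untreated arrays, although the TMZ difference of -0.44 was not called (limma adjusted p = 1; 95% interval -0.70 to -0.18, not adjusted). On all 4 DBTRG arrays IL1B lay between 4.48 and 4.75 with no array detected, so no change with Y15 can be given there. Between untreated cells IL1B was at least 127-fold lower in DBTRG than in U87 (means 4.67 and 12.49; limma adjusted p = 4.11e-11).

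IL6 and LIF encode cytokines that share the signalling chain gp130, and both act on the STAT3 pathway. IL6 stood at 10.92 and 10.85 on the U87 Y15 arrays, against 8.85 and 8.97 on the U87 untreated arrays. The Y15 arrays lay far above the untreated ones, by 1.97 ± 0.19 (3.91-fold; limma adjusted p = 7.6e-05). With both agents IL6 stood at 10.75 and 10.46, and with TMZ alone at 9.0 and 8.78, a range that overlapped the untreated arrays. IL6 was detected on no DBTRG array: it stood at 5.27 and 5.28 with Y15, against 4.66 and 5.27 in untreated cells, and the difference was not called (limma adjusted p = 0.222). Without the second DBTRG untreated array that difference became called (limma adjusted p = 0.0196), still between undetected signals. Untreated DBTRG cells had at least 10.6-fold less IL6 signal than untreated U87 cells (means 4.96 and 8.91; limma adjusted p = 2.03e-08).

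LIF was detected on all 12 arrays and was called higher with Y15 in both lines. It stood at 7.67 and 7.50 on the DBTRG Y15 arrays, against 6.12 and 6.45 on the DBTRG untreated arrays. It stood at 9.56 and 9.53 on the U87 Y15 arrays, against 8.41 and 8.20 on the U87 untreated arrays. In both lines the Y15 arrays lay above the untreated ones, by 1.29 ± 0.14 in DBTRG cells (2.45-fold; limma adjusted p = 6.37e-05) and by 1.24 ± 0.14 in U87 cells (2.36-fold; limma adjusted p = 0.000212). The difference between these 2 changes was 0.05, with a 95% interval of -0.38 to 0.48 (limma adjusted p = 0.874). With each array centred on its median instead of quantile normalization, that difference became 0.81 and was called (limma adjusted p = 0.0171). With both agents in U87 cells LIF stood at 9.29 and 9.20, and with TMZ alone at 7.67 and 7.77, below both untreated arrays.

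The promoter of IL6 is shown because its 200 bases upstream of the transcript start hold matches to 3 of the 4 motifs searched. The motifs were kappaB (GGNNNTTCC), AP-1 (TGANTCA), CRE (ACGTCA) and C/EBP (TTNNGNAA), read on both strands. Of 35097 RefSeq windows of the same length in GRCh38.p14, 14.3% held a kappaB match, 5.38% an AP-1 match, 6.33% a CRE match and 26.8% a C/EBP match. Windows were at hand for 8 of the 10 genes, 9 windows in all since IL1A has 2 starts. The IL6 window is chr7:22727000-22727199 on the plus strand. Capitals mark, from 5′ to 3′, the CRE match from -163 to -158, the C/EBP match from -155 to -148 and the kappaB match from -72 to -64, counted from the start:
IL6: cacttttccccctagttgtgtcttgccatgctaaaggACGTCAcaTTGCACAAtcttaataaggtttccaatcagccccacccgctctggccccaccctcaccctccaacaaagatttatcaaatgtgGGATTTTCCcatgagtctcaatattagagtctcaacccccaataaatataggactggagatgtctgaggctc
A match describes letters in this window and is not a measured binding site. No 2 matches overlap in any window printed here.

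CXCL8, CXCL1, CXCL3 and CXCL2 lie in 1 row of chemokine genes on chromosome 4, and their products are ligands of the receptor CXCR2. CXCL2 stood at 9.38 and 9.03 on the U87 Y15 arrays, against 6.97 and 6.78 on the U87 untreated arrays. The Y15 arrays lay well above, by 2.33 ± 0.22 (5.04-fold; limma adjusted p = 8.11e-05). With both agents CXCL2 stood at 9.36 and 9.29, between the values of the Y15 arrays, and with TMZ alone at 6.56 and 6.16. In DBTRG cells it stood at 5.76 and 6.37 with Y15, both detected, against 5.40 and 5.02 in untreated cells, neither detected. The mean was at least 1.48-fold higher with Y15 in DBTRG cells (limma adjusted p = 0.0116), and this call was lost without the second untreated array (limma adjusted p = 0.0854), without the second Y15 array (0.0889) and in a fit restricted to the DBTRG arrays (0.0509).

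CXCL8, the chemokine also called interleukin 8, was bright on every array. Its brighter probe stood at 13.52 and 13.47 on the U87 Y15 arrays, against 12 and 12.05 on the U87 untreated arrays. The groups were apart by 1.47 ± 0.13 (2.78-fold; limma adjusted p = 5.38e-05). With both agents that probe stood at 13.65 and 13.67, and with TMZ alone at 11.99 and 11.68. In DBTRG cells it stood at 12.35 and 12.53 with Y15, against 12 and 12.13 in untreated cells. The DBTRG groups did not overlap, yet the change was small, 0.37 ± 0.13 (1.29-fold; limma adjusted p = 0.0422). That call was lost without either DBTRG untreated array (limma adjusted p = 0.182 and 0.064) and without the second DBTRG Y15 array (0.172). It was also lost with array weights (limma adjusted p = 0.113), with no filter on dim probes (0.0536) and in a fit restricted to the DBTRG arrays (0.145).

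The second CXCL8 probe gave the same direction in U87 cells and no call in DBTRG cells. In a fit over all 19354 kept probes it was higher with Y15 by 2.36 ± 0.21 in U87 cells (5.14-fold; limma adjusted p = 8.08e-05). It stood at 12.70 and 12.68 on those Y15 arrays, against 10.39 and 10.27 on the U87 untreated arrays. In DBTRG cells it stood at 11.01 and 11.53 with Y15, against 11.06 on each untreated array. Those groups overlapped, and the difference of 0.21 had a 95% interval of -0.25 to 0.67 (limma adjusted p = 0.476). The brighter probe was not called in DBTRG cells in that fit either (limma adjusted p = 0.057).

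CXCL1 was detected in DBTRG cells and in no U87 array. It stood at 7.99 and 8.38 on the DBTRG Y15 arrays, against 9.12 and 8.96 on the DBTRG untreated arrays. Both Y15 arrays lay below both untreated arrays, and the gene fell by 0.86 on the log2 scale (SE 0.19, 1.81-fold lower; limma adjusted p = 0.00569). On all 8 U87 arrays CXCL1 lay between 4.40 and 5.16 and was not detected, so no fold is given among the U87 groups. Untreated DBTRG cells had at least 12.9-fold more CXCL1 signal than untreated U87 cells (means 9.04 and 4.83; limma adjusted p = 1.8e-08).

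CXCL3 was detected on 1 of the 12 arrays, the first U87 array with both agents, at 5.41. The other array of that group stood at 4.52. The remaining 10 arrays lay between 4.35 and 4.94, with none detected. It failed the filter, which asked for detection on at least 2 arrays, and no test was made.

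The upstream windows of the CXCL genes are shown because CXCL1, CXCL2 and CXCL3 are near copies there although their signals differed: CXCL2 was detected on 10 arrays, CXCL1 on 4 and CXCL3 on 1. Each of the 3 windows held 2 kappaB matches with the same letters, in capitals nearest the start, from -53 to -45 in all 3 and from -77 to -69 in CXCL2 or -78 to -70 in CXCL1 and CXCL3. Of the 4 CXCL windows, the CXCL2 window alone also held a C/EBP match (-188 to -181) and a CRE match (-165 to -160), both in capitals. In the CXCL8 window the capitals mark an AP-1 match (-137 to -131) and then 1 kappaB match (-91 to -83), whose letters are those of the outer kappaB match in the other 3. The windows are chr4:74099196-74099395 on the minus strand for CXCL2, chr4:73869193-73869392 on the plus strand for CXCL1, chr4:74038690-74038889 on the minus strand for CXCL3 and chr4:73740369-73740568 on the plus strand for CXCL8:
CXCL2: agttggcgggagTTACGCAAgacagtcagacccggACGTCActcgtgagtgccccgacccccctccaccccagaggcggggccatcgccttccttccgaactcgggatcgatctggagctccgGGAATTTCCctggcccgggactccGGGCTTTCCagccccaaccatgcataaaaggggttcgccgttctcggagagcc
CXCL1: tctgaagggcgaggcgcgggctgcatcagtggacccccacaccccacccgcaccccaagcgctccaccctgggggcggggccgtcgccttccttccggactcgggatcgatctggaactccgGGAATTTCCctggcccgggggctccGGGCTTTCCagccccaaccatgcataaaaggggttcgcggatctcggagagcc
CXCL3: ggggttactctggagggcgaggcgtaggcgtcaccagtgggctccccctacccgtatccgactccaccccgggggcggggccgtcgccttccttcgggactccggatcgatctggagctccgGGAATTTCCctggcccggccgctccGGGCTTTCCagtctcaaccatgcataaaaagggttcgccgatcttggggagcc
CXCL8: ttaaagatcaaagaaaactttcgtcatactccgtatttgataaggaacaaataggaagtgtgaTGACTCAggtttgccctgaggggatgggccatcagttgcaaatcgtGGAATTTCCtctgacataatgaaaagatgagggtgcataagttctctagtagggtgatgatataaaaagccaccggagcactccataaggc
In global alignments the CXCL2 window was 77.7% identical to that of CXCL1 and 76.9% identical to that of CXCL3, and CXCL3 and CXCL1 were 80.8% identical. CXCL8 and CXCL2 were 44.4% identical. Near-copies can also share array signal, which was not tested for these probes.

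**Figure D2:**
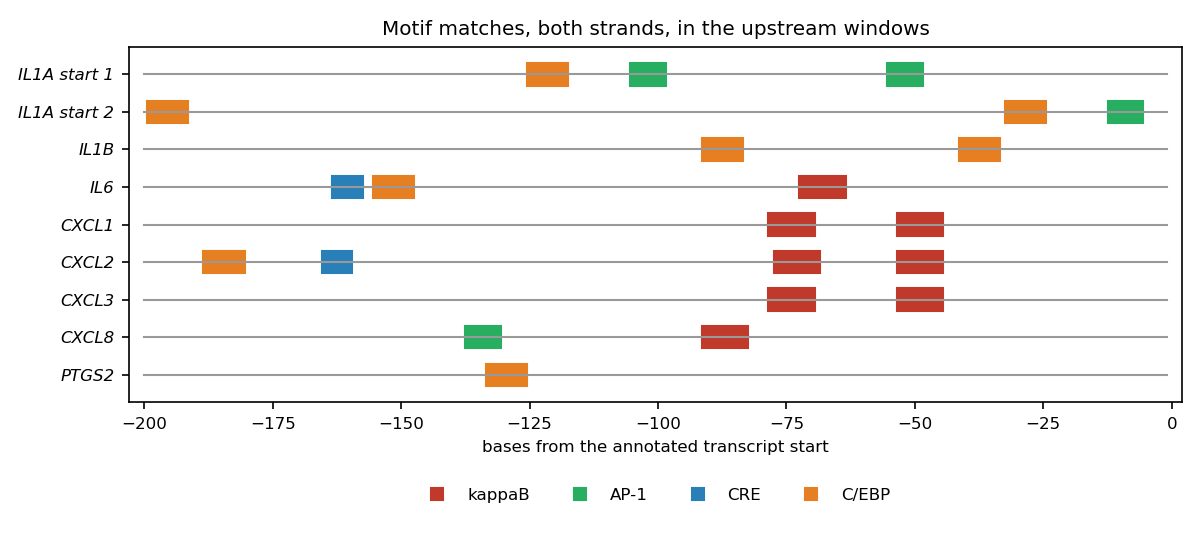
Motif matches on either strand (coloured boxes) in the 200 bases upstream of each annotated start, with distance from the start in bases on the x axis and 1 line per window. CXCL1, CXCL2 and CXCL3 share 2 kappaB boxes, and the PTGS2 window holds a C/EBP box alone.

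In RefSeq order the chemokine row on chromosome 4 runs CXCL8, CXCL6, PF4V1, CXCL1, PF4, PPBP, CXCL5, CXCL3 and CXCL2. In U87 cells with Y15 the genes at its ends, CXCL8 and CXCL2, were called higher. Of the genes between them, PPBP was detected on all 12 arrays and was not called (-0.03 ± 0.18; limma adjusted p = 0.929). CXCL5, detected on 3 of the 12 arrays, was not called either (0.29 ± 0.24; limma adjusted p = 0.425), a value that includes undetected signals. CXCL6 and CXCL1 were detected on no U87 array, CXCL3 on 1 of the 12 arrays, and PF4V1 and PF4 on none. Changes of CXCL6, CXCL1, CXCL3, PF4V1 and PF4 with Y15 in U87 cells were thus not measured. In DBTRG cells CXCL6, a neutrophil chemokine that neighbours CXCL8, fell by 1.51 on the log2 scale with Y15 (SE 0.17; limma adjusted p = 8.57e-05), the same direction as CXCL1.

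CCL2, the monocyte chemokine on chromosome 17, moved in opposite directions in the 2 lines. It stood at 8.24 and 8.38 on the DBTRG Y15 arrays, against 9.15 and 9.41 on the DBTRG untreated arrays. It stood at 9.88 and 9.97 on the U87 Y15 arrays, against 9.24 and 9.14 on the U87 untreated arrays. With Y15 it fell by 0.97 on the log2 scale in DBTRG cells (SE 0.12, 1.95-fold lower; limma adjusted p = 0.000196) and was higher by 0.73 ± 0.12 in U87 cells (1.66-fold; limma adjusted p = 0.00252), with no overlap of arrays in either line. With both agents CCL2 stood at 9.66 and 9.50, and with TMZ alone at 9.17 and 9.16, inside the range of the untreated arrays. The change with both agents, 0.39 ± 0.12, passed only narrowly (limma adjusted p = 0.045) and was lost in each of the 4 fits that left out 1 array (0.0891 to 0.224). It was also lost with no filter on dim probes (limma adjusted p = 0.0564). With each array centred on its median, CCL2 in U87 cells was at 0.08 with Y15 (limma adjusted p = 0.684) and at 0.20 with both agents (0.446).

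PTGS2, also called cyclooxygenase 2, is the inducible enzyme that starts prostaglandin synthesis, and it was called higher with Y15 in U87 cells on both of its probes. Its brighter probe stood at 11.51 and 11.40 on the U87 Y15 arrays, against 8.92 and 9.18 on the U87 untreated arrays. The groups were far apart, by 2.40 ± 0.18 (5.29-fold; limma adjusted p = 2.22e-05). With both agents that probe stood at 11.29 and 11.28 and with TMZ alone at 8.50 and 8.55, below both untreated arrays. The second probe was higher by 2.57 ± 0.16 with Y15 in U87 cells (5.93-fold; limma adjusted p = 2.11e-05).

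In DBTRG cells PTGS2 was near the limit of detection and its probes disagreed. The brighter probe stood at 5.97 and 5.33 with Y15, of which the first was detected, against 4.68 and 4.67 in untreated cells, neither detected. Its mean was at least 1.10-fold higher with Y15 (limma adjusted p = 0.00185). The second probe stood at 5.51 and 5.02 with Y15, of which the first was detected, against 5.15 and 4.96 in untreated cells. Those groups overlapped, and the difference of 0.21 was not called (95% interval -0.15 to 0.56; limma adjusted p = 0.366). Between untreated cells PTGS2 was at least 11.7-fold lower in DBTRG than in U87 on the brighter probe and at least 3.35-fold lower on the second (limma adjusted p = 7.4e-09 and 1.17e-06).

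The PTGS2 window, chr1:186680424-186680623 on the minus strand, is shown beside those of the chemokines because the gene had a change like that of CXCL2 in U87 cells and a different set of matches. Capitals mark its C/EBP match, from -133 to -126, whose letters are those of the C/EBP match in the CXCL2 window. No kappaB, AP-1 or CRE match with the letters above lies in these 200 bases, which says nothing about sites elsewhere:
PTGS2: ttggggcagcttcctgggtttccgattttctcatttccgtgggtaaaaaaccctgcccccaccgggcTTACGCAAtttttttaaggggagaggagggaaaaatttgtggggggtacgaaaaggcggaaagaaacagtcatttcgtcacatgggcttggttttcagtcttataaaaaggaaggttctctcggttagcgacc
Among the windows not printed, both IL1A starts had AP-1 and C/EBP matches, and IL1B had 2 C/EBP matches.

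**Figure D3:**
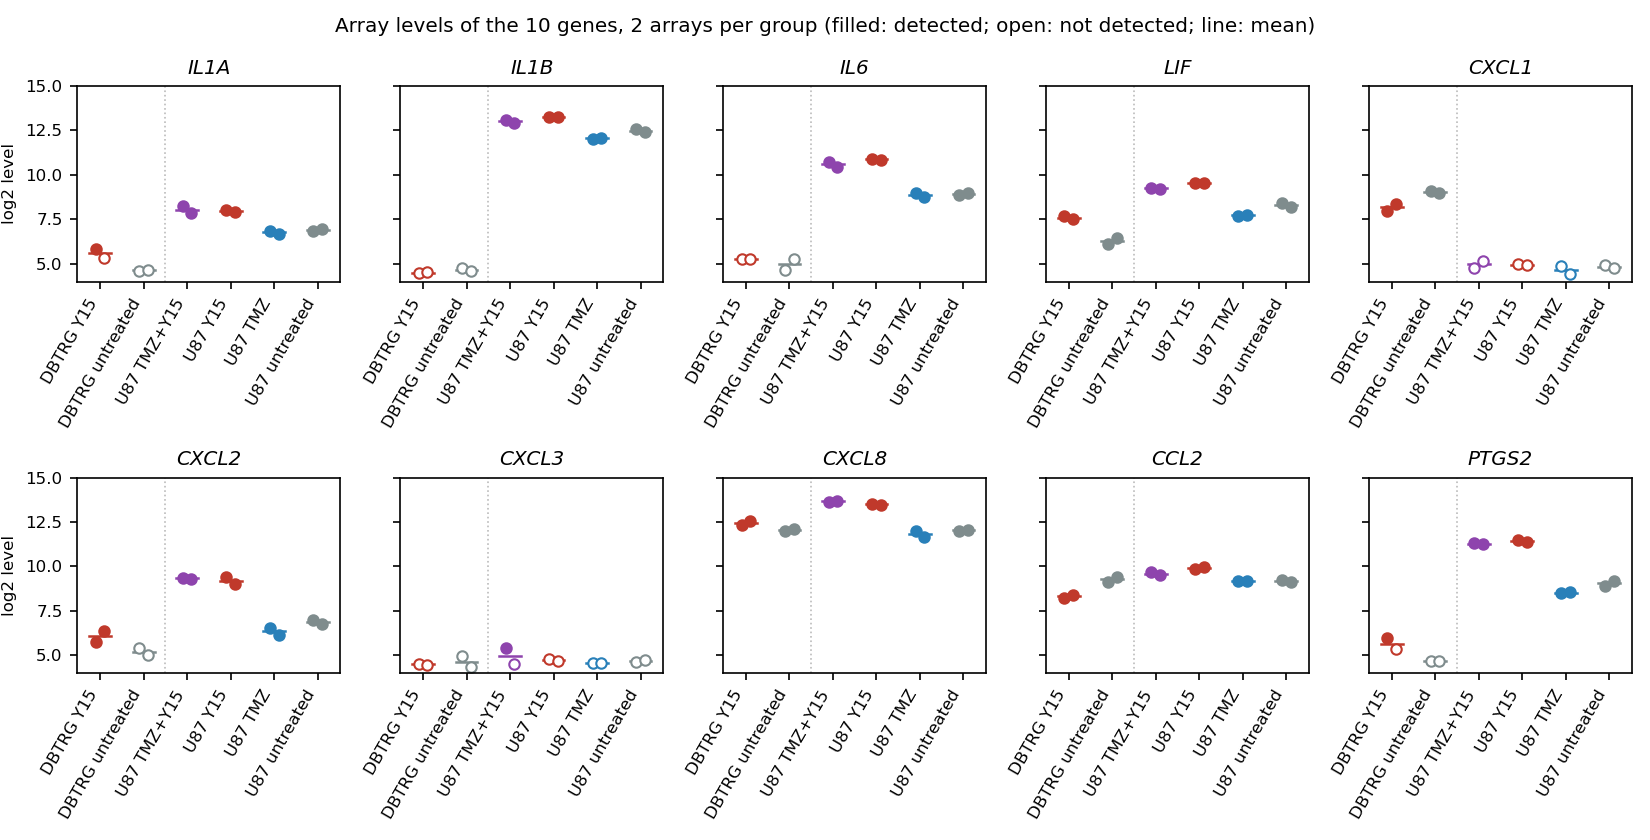
Log2 level of each of the 10 genes (y axis) on each of the 12 arrays, by group along the x axis; filled points were detected, open points were not, and lines are group means. IL1B, IL6 and PTGS2 are high in all 4 U87 groups, CXCL1 in both DBTRG groups, and CXCL3 lies near the bottom throughout.

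The order of the group means put the 2 U87 groups given Y15 first for every gene tested except CXCL1. For IL1A and CXCL2 these 2 groups overlapped each other, and the untreated and TMZ groups of U87 cells overlapped for IL1A, IL6 and CCL2. CCL2 was alone in having untreated DBTRG cells next after these, above untreated U87 cells but overlapping them (means 9.28 and 9.19). For CXCL2 the U87 TMZ arrays, at 6.56 and 6.16, overlapped the DBTRG Y15 arrays. For CXCL1 the order began with untreated DBTRG cells and then DBTRG cells with Y15, and the U87 groups followed below detection.

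Untreated DBTRG cells had less signal than untreated U87 cells for 6 of the 9 genes and more for 1, where 59.3% of all genes were called between the lines, 26.8% higher and 32.5% lower. The 6 were IL1A (at least 2.61-fold lower), IL1B, IL6, LIF (4.05-fold lower, the one of the 6 detected in both lines), CXCL2 (at least 2.58-fold lower) and PTGS2, and the 1 was CXCL1. IL1B and IL6 were detected on no DBTRG array and CXCL1 on no U87 array. These genes passed the filter through the other line alone, which set the direction of any call, so nothing is read from the counts. CXCL8 on its brighter probe and CCL2 were not called, with differences of 0.04 and 0.09 and 95% intervals of -0.24 to 0.33 and -0.19 to 0.37. The second CXCL8 probe was higher in untreated DBTRG cells by 0.73 ± 0.21 (limma adjusted p = 0.0125), so the 2 probes of that gene disagreed here as well. With each array centred on its median, CCL2 was lower in untreated DBTRG cells by -0.46 and was called (limma adjusted p = 0.0258).

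The test of the difference between the Y15 changes of the 2 lines (DBTRG minus U87) was called for 7 of the 9 genes, all below 0, where 20.0% of all genes were called, 12.4% higher and 7.61% lower. CCL2, CXCL8 and LIF were the 3 of the 9 detected on every array of the 4 groups, so that both changes were measured. CCL2 differed by -1.70 ± 0.18 (limma adjusted p = 0.000282), falling in DBTRG cells and rising in U87 cells by quantile normalization. By median centring the U87 rise was 0.08 and was not called (limma adjusted p = 0.684). CXCL8 differed by -1.10 ± 0.18 (limma adjusted p = 0.00261), and its dimmer probe by -2.15 ± 0.29 (0.00151). LIF was not called. The other 5 called differences rest in part on undetected signals and give no size: neither DBTRG group was detected for IL1B and IL6, neither U87 group for CXCL1, and untreated DBTRG cells for CXCL2 and PTGS2, whose DBTRG changes are only lower bounds. The CXCL1 difference lost its call in 6 of the 8 fits that left out 1 array (limma adjusted p = 0.0572 to 0.0998) and with no filter on dim probes (0.0513). IL1A was not called, and its DBTRG change too is only a lower bound.

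With temozolomide alone the 9 differences lay between -0.58 and -0.02, all below 0, and none was called. The 4 with an unadjusted p under 0.05 were LIF (-0.58, 95% interval -0.89 to -0.28), PTGS2 (-0.53, -0.93 to -0.13), CXCL2 (-0.51, -1.0 to -0.02) and IL1B (-0.44), each with a limma adjusted p of 1. All TMZ arrays lay below all untreated arrays for these 4 genes. The second PTGS2 probe gave -0.50 ± 0.16.

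None of the 9 was called between U87 cells given both agents and U87 cells given Y15 alone by limma, where 0.306% of all genes were called, 0.0875% higher and 0.219% lower. CCL2 (-0.34, 95% interval -0.62 to -0.07) was the one with an unadjusted p under 0.05, as were 1289 of all genes. The other 8 differences ran from -0.30 for LIF to 0.17 for CXCL8, and the widest interval among the detected genes was that of CXCL2, -0.37 to 0.61. With each array centred on its median, 2 of the 9 were called higher with both agents, IL1A (0.58; limma adjusted p = 0.0457) and CXCL2 (0.62; 0.0486), in a scaling that put the median of all genes at 0.43.

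Against TMZ alone, both agents together gave 8 of 9 genes higher and 0 lower, where 25.3% of all genes were called, 10.9% higher and 14.5% lower. CXCL2 was 7.82-fold higher (2.97 ± 0.22; limma adjusted p = 1.73e-05) and PTGS2 6.76-fold higher (2.76 ± 0.18; 7.75e-06). CCL2 was the smallest of the 8, at 0.42 ± 0.12 (limma adjusted p = 0.033), and lost its call in each of the 4 fits that left out 1 array. Against untreated cells both agents together gave CXCL2 at 2.46 ± 0.22, PTGS2 at 2.23 ± 0.18 and IL6 at 1.70 ± 0.19 (limma adjusted p = 6.43e-05, 3.41e-05 and 0.00023). IL1B in that comparison, at 0.52 ± 0.12 (limma adjusted p = 0.0105), lost its call without the second untreated array (0.0879) and without the first array with both agents (0.0815). The difference of the Y15 change with and without TMZ was called for 0 of the 9 genes by limma, where 0% of all genes were called, and 0 of the 9 had an unadjusted p under 0.05, against 950 of all genes. The 9 differences ran from -0.32 for CCL2 to 0.63 for CXCL2 (95% interval -0.06 to 1.33).

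The size of the U87 values depended on how the arrays were put on 1 scale. Quantile normalization called 984 genes higher and 1532 lower with Y15 in U87 cells. With each array centred on its median instead, 412 of 7401 called genes were higher and the median of all genes lay at -0.60. With each array centred on the median of the probes detected on every array, a setting chosen after seeing the data, 2383 of 3295 called genes were higher and the median lay at 0.12. Under median centring 6 of the 9 genes were called higher in U87 cells with Y15, all but CXCL1, IL1A (0.45; limma adjusted p = 0.069) and CCL2. PTGS2 was then at 1.82, CXCL2 at 1.71, IL6 at 1.36, CXCL8 at 1.22, LIF at 0.57 and IL1B at 0.55. Under centring on detected probes all 9 were called, CXCL1 among them at 0.84 (limma adjusted p = 0.00788) although it was undetected. The authors' deposited log2 table, whose background treatment is unknown, gave PTGS2 at 2.22 and CXCL2 at 1.72 in U87 cells with Y15. In DBTRG cells with Y15 it gave IL1A at 0.37, PTGS2 at 0.37, CXCL2 at 0.33 and LIF at 0.75.

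For the other comparisons the share of higher calls moved with the scaling too. In DBTRG cells with Y15, 2213 of 4313 called genes were higher by quantile normalization and 2164 of 3216 by median centring. With both agents against untreated U87 cells, 1137 of 2643 were higher by quantile normalization, 686 of 2628 by median centring and 1539 of 2678 by centring on detected probes. Against TMZ alone the numbers were 1241 of 2895, 722 of 2914 and 1703 of 2969. Against Y15 alone they were 10 of 35, 3640 of 3715 and 5 of 170. Between untreated cells of the 2 lines they were 3060 of 6771, 1495 of 7206 and 3828 of 6838, and for the difference of the Y15 change 1417 of 2286, 5879 of 6182 and 872 of 2645.

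**Figure D4:**
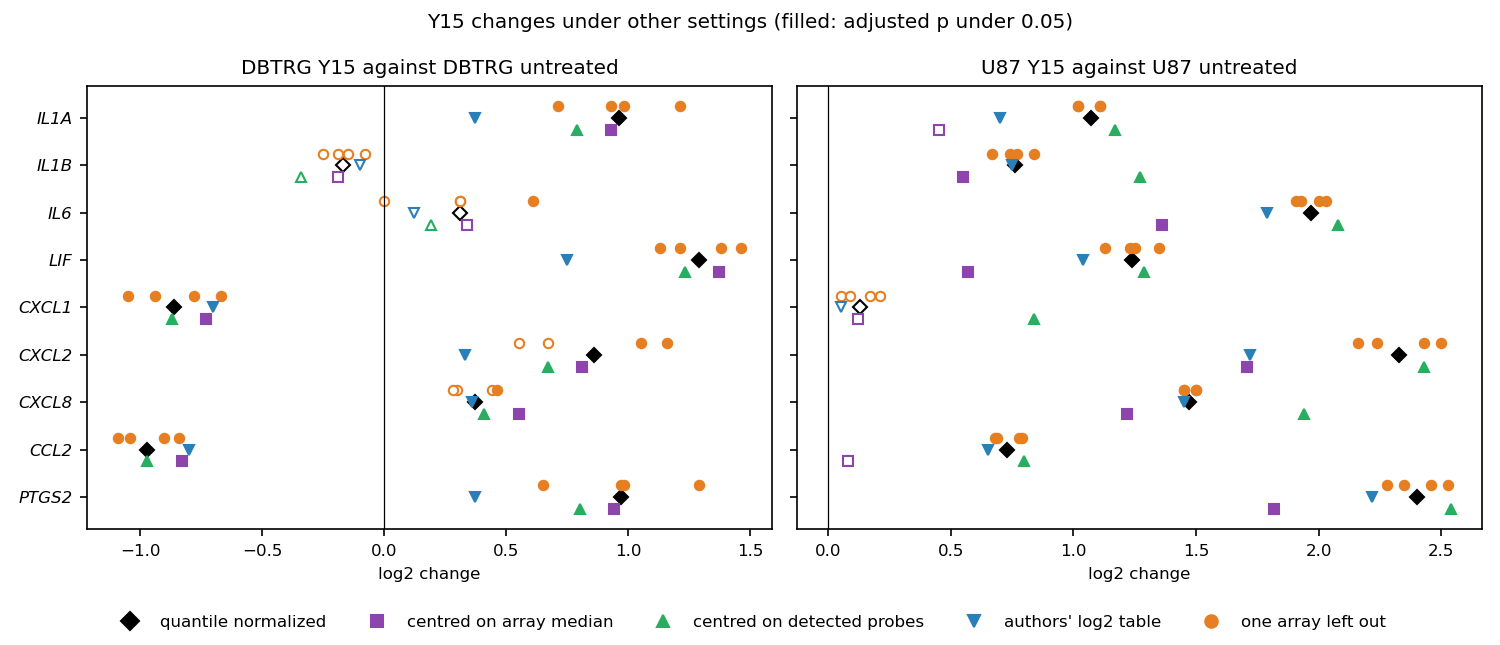
Log2 change with Y15 (x axis) of each of the 9 genes in DBTRG cells (left) and U87 cells (right) under 5 kinds of setting, filled where the limma adjusted p was under 0.05. In U87 cells the median-centred squares lie furthest left for every gene but CXCL1, and those of IL1A and CCL2 are open.

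The counts of other lists below stand beside the shares of all genes called with Y15, which were 19.4% higher and 18.4% lower in DBTRG cells and 8.61% higher and 13.4% lower in U87 cells. The filter let in genes detected in any of the groups. CCL20, IL24, IL1RN, FOS and FOSB were detected on neither untreated U87 array. Such genes could hardly be called lower, so the counts lean to higher calls. How far was not tested. In DBTRG cells the shares called in the lists of cytokines, receptors, signal carriers, interleukin 1 processing, prostanoid genes and AU-rich decay were near or below these, and nothing is read from those counts. Of 21 other cytokines and chemokines tested from a list of 37, 5 were higher and 1 lower with Y15 in DBTRG cells (median change -0.06), and 9 were higher and 0 lower in U87 cells (median 0.29). With both agents 11 were higher and 0 lower (median 0.58). By median centring the U87 Y15 numbers were 7 higher and 4 lower, and by centring on detected probes 16 and 0. CSF3, the granulocyte growth factor, was 2.89-fold higher with Y15 in U87 cells (limma adjusted p = 3.91e-05), and CCL20, a chemokine for lymphocytes and dendritic cells, was at least 2.31-fold higher (0.000202). In DBTRG cells IL12A, a subunit of interleukin 12, was at least 2.86-fold higher with Y15 (limma adjusted p = 1.93e-06). IL11, an IL-6 family cytokine like LIF, was higher in both lines, by 1.56 ± 0.22 in DBTRG cells and 1.55 ± 0.22 in U87 cells (limma adjusted p = 0.000315 and 0.000857).

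Of the receptors and decoys of these ligands, 9 of 22 listed passed the filter on dim probes and were tested. With Y15, 1 was higher and 0 lower in DBTRG cells (median -0.17), and 1 was higher and 3 lower in U87 cells (median -0.19), of which 0 were lower by centring on detected probes and 6 by median centring. The one higher in U87 cells was IL1RN, the secreted antagonist that blocks the interleukin 1 receptor, at least 2.96-fold higher (limma adjusted p = 3.75e-05). In DBTRG cells it was PTGER4, a prostaglandin E2 receptor, by 1.04 ± 0.14 (limma adjusted p = 0.000258). IL1RAP, the accessory chain of the interleukin 1 receptor, was at least 1.32-fold lower in U87 cells with Y15 (limma adjusted p = 0.0147), and PTGER2, another prostaglandin E2 receptor, fell by 0.56 on the log2 scale there (SE 0.13; 0.0146). Both calls were lost by centring on detected probes (limma adjusted p = 0.334 and 0.0873) and in 2 of the 4 fits each that left out 1 array. For IL1RAP these were without the second untreated or the first Y15 array (changes of -0.56 and -0.51). For PTGER2 they were without the first untreated or the second Y15 array (-0.42 and -0.44). The dimmer IL1RAP probe gave -0.45 and no call (limma adjusted p = 0.165). The IL1RAP call was also lost with no background correction (limma adjusted p = 0.065) and in the deposited log2 table (0.0563).

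Of 14 genes tested that carry or damp the receptor signals, 3 were higher and 2 lower with Y15 in DBTRG cells (median -0.19), and 2 were higher and 4 lower in U87 cells (median -0.08; 0 and 10 by median centring, 3 and 2 by centring on detected probes). IRAK2, a kinase of the interleukin 1 receptor complex, was higher by 0.65 ± 0.19 in DBTRG cells and by 0.70 ± 0.19 in U87 cells (limma adjusted p = 0.0202 and 0.0248), but neither call was stable. In DBTRG cells it was lost without the second Y15 array, where the change was 0.32 (limma adjusted p = 0.125), without the first untreated array (0.125) and in a fit restricted to the DBTRG arrays (0.109). In U87 cells it was lost by median centring (0.03; limma adjusted p = 0.904) and in all 4 fits that left out 1 array (0.0571 to 0.125). SOCS2, a feedback inhibitor of JAK kinases, was 2.44-fold higher in DBTRG cells (limma adjusted p = 0.000177). Of 7 genes of interleukin 1 processing, 1 was higher and 1 lower in DBTRG cells (CASP4 and GSDMD; median -0.05), and 0 were higher and 1 lower in U87 cells (CAPN2; median 0.13), with 0 and 5 by median centring and 2 and 1 by centring on detected probes. The CAPN2 call was lost in all 4 fits that left out 1 array (limma adjusted p = 0.0712 to 0.0932), and that of GSDMD in 3 of 4 (0.0839 to 0.202, all but the fit without the second Y15 array) and by median centring (0.184).

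Downstream of PTGS2, PTGES, the synthase that makes prostaglandin E2, was higher with Y15 in both lines. It was 3.01-fold higher in DBTRG cells (1.59 ± 0.12; limma adjusted p = 5.77e-06) and 1.60-fold higher in U87 cells (0.68 ± 0.12; 0.00255), the U87 call being lost by median centring (0.03; 0.915). Of 10 genes of prostanoid synthesis and breakdown tested, 3 were higher and 2 lower in DBTRG cells (median -0.11), and 3 were higher and 1 lower in U87 cells (median 0.35; 1 and 4 by median centring, 5 and 1 by centring on detected probes). ABCC4, an exporter of prostaglandin E2, fell by 0.88 in DBTRG cells and by 0.70 in U87 cells on the log2 scale (SE 0.15 for each; limma adjusted p = 0.00126 and 0.00964). The DBTRG value was -0.53 on its dimmer probe, and the U87 call was lost without the second untreated array (limma adjusted p = 0.0851) and without the first Y15 array (0.0777).

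Of 18 genes of NF-κB, its kinases and its feedback tested, 11 were higher and 0 lower with Y15 in DBTRG cells (median 0.43), and 4 were higher and 1 lower in U87 cells (median 0.13). By median centring the U87 numbers were 3 and 10, and by centring on detected probes 8 and 1, while in DBTRG cells they were 10 and 0, and 9 and 0. TNFAIP3, the feedback inhibitor also called A20, was 7.22-fold higher in DBTRG cells (2.85 ± 0.14; limma adjusted p = 3.21e-07) and 2.06-fold higher in U87 cells (1.05 ± 0.14; 0.000525). The difference between those changes was 1.81 ± 0.19 (limma adjusted p = 0.000297), above 0 where those of CXCL8 and CCL2 were below it. RELB, an NF-κB subunit, was at least 1.75-fold higher in DBTRG cells and 2.47-fold higher in U87 cells (limma adjusted p = 4.17e-05 and 0.000202). NFKBIZ, a nuclear cofactor of NF-κB, was 2.83-fold higher in DBTRG cells and 3.73-fold higher in U87 cells (limma adjusted p = 2.01e-05 and 1.83e-05), but its dimmer probe was not called in either line (0.10 and 0.63; 0.787 and 0.0979).

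The list of C/EBP, AP-1 and CREB-ATF factors, like the others, was chosen with earlier results of these data known, so the lists are not ranked. Of 14 tested, 9 were higher and 0 lower with Y15 in DBTRG cells (median 1.27), and 8 were higher and 1 lower in U87 cells (median 0.74; 6 and 2 by median centring, 11 and 1 by centring on detected probes). ATF3 was 20.1-fold higher in DBTRG cells and 8.69-fold higher in U87 cells (limma adjusted p = 1.68e-07 and 5.97e-06). DDIT3 was 13.8-fold higher in DBTRG cells and 4.79-fold higher in U87 cells (limma adjusted p = 1.68e-07 and 1.14e-05). CEBPB, a C/EBP factor that acts on IL6 and PTGS2, had a mean of 12.19 with Y15 against 8.92 in untreated DBTRG cells (9.60-fold; limma adjusted p = 1.68e-07), and 13.01 with Y15 against 12.69 in untreated U87 cells (0.32 ± 0.13; 0.109). FOS and FOSB, partners in AP-1, were not detected on either untreated array of either line. FOS was at least 3.78-fold higher with Y15 in DBTRG cells and at least 14.2-fold higher in U87 cells, and FOSB at least 4.17-fold and at least 23.5-fold higher (limma adjusted p = 2.63e-05, 8.11e-06, 3.87e-05 and 8.37e-06).

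AU-rich messages, a class to which many cytokine transcripts belong, are decayed or kept by a set of RNA-binding proteins. Of 11 genes of this control tested, 3 were higher and 1 lower with Y15 in DBTRG cells (median -0.13), and 4 were higher and 0 lower in U87 cells (median 0.07; 1 and 5 by median centring, 5 and 0 by centring on detected probes). ZFP36, which binds AU-rich elements and speeds decay, was 2.77-fold higher in DBTRG cells and 1.88-fold higher in U87 cells (limma adjusted p = 3.56e-05 and 0.00162), the U87 call being lost by median centring (0.24; 0.295). ZC3H12A, an RNase that degrades IL6 messages, was 3.22-fold higher in U87 cells (1.69 ± 0.15; limma adjusted p = 5.86e-05), and the difference between the lines was -1.91 ± 0.21 (DBTRG minus U87; 0.000362). DUSP1, a phosphatase of p38 kinase, was 4.34-fold higher in DBTRG cells and 2.07-fold higher in U87 cells (limma adjusted p = 6.6e-06 and 0.00127). The U87 call of DUSP1 was lost by median centring (0.50, limma adjusted p = 0.0596). HNRNPD was at -0.38 ± 0.12 with Y15 in DBTRG cells (limma adjusted p = 0.0252), a call lost by median centring (-0.18, limma adjusted p = 0.471). It was also lost with array weights (limma adjusted p = 0.0895) and in a fit restricted to the DBTRG arrays (0.115). Each fit that left out 1 DBTRG array lost it as well, with changes of -0.42 to -0.34.

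**Figure D5:**
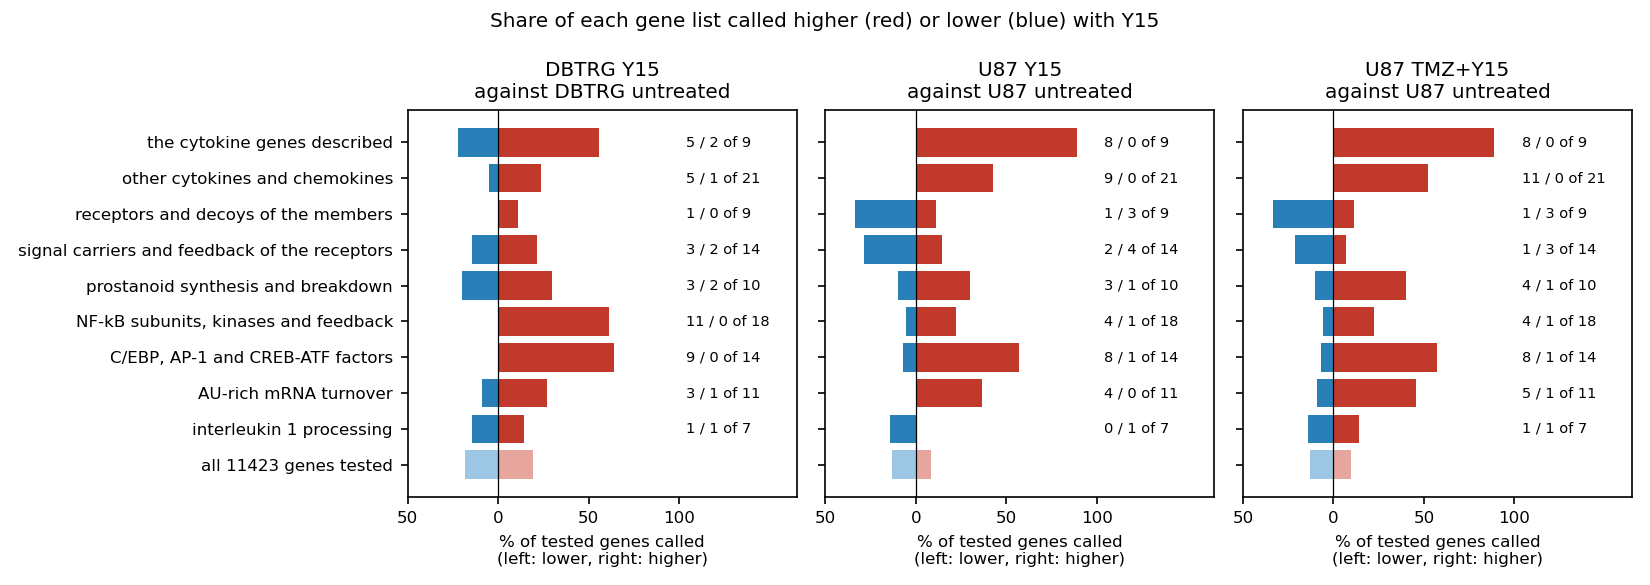
Share of the tested genes of each list called higher (red, to the right) or lower (blue, to the left) with Y15, in percent, for 3 comparisons against untreated cells; the pale bars are all 11423 genes tested, and the numbers give higher / lower of tested. The cytokine genes described reach further right in both U87 panels than in DBTRG cells.

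Across the 8 U87 arrays, which fall into 4 with and 4 without Y15, the genes most like each cytokine were named by Pearson's r of their log2 levels, as a description without a test. For PTGS2 the closest of the genes outside the 10 was IL36RN (r = 0.994), an antagonist in the interleukin 1 family, followed by SNORD25 and IL36B (0.993 each), and for IL6 it was IL36B (0.995). IL36RN was itself higher with Y15 in U87 cells by 2.05 ± 0.13 (limma adjusted p = 1.14e-05), while in DBTRG cells it was at 0.13 ± 0.13 (0.492). For LIF and IL1B the closest was CSF3 (r = 0.997 and 0.988). For CXCL8 it was CTH (r = 0.999), the enzyme cystathionine gamma-lyase, followed by NFKBIZ and SPINK1 (0.998 each), for CXCL2 MT1M (0.997), a metallothionein, and for IL1A HES1 (0.996), a Notch target. CTH and MT1M were higher with Y15 in DBTRG cells too, by 3.8 ± 0.18 and 3.10 ± 0.19 (limma adjusted p = 3.96e-07 and 2.28e-06). For CCL2 it was IDI2 (r = 0.997), an isopentenyl diphosphate isomerase. CXCL1, undetected in U87 cells, is not described this way.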

How the data were processed

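Messenger RNA was measured on 12 Illumina bead arrays, 2 per group. The deposited table holds intensity values per probe that the authors had not normalized, with a detection p-value beside each, per the file headers; GenomeStudio was used, per the submitters' processing notes, with no version given in the sources used here. A second deposited table by the authors holds log2 values, whose columns share 1 median (6.82) and keep the rank order of the intensities; its background treatment is unknown.

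Intensities were background-corrected (normexp with detection p-values, offset 16), logged and quantile-normalized. Probes detected (p under 0.01) on at least 2 arrays were kept (19354), of which 4101 had no symbol. Of 47323 probes, 30113 had 1 symbol in the platform annotation, 8 several and 17202 were not listed. The brightest probe stood for each of 11423 genes. 1 limma fit (3.58.1, R 4.3.3) of 6 group means with empirical Bayes gave changes, standard errors and Benjamini-Hochberg adjusted p, on 10.5 degrees of freedom; 95% intervals are not adjusted. The fit was tested on simulated data. Alternatives were another scaling, background, offset, filter, probe, array weights, arrays in the fit, a replicate block, the deposited log2 values, and leaving out each array. No slide or scan batch was given. The number of arrays limits the precision.

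The genes, the lists and the motifs were chosen with earlier results of these data known. Named genes were the 10, with PTK2, the 4 of each list with the smallest p in each Y15 comparison where called, and the 3 most alike over the U87 arrays; CXCL6, PPBP, CXCL5, PF4 and PF4V1 were named as neighbours. Promoter windows came from RefSeq (GRCh38.p14) and were searched and aligned with Biopython 1.88.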

Additional observations from a re-analysis of the deposited data

Results flagged for a closer look

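The change with Y15 differed between the lines, by the limma test of the difference (DBTRG minus U87), for 7 of the 9 genes tested. CCL2 differed by -1.70 (limma adjusted p = 0.000282), lower with Y15 on both DBTRG arrays and higher on both U87 arrays by quantile normalization. By median centring its U87 change was 0.08 and was not called (limma adjusted p = 0.684). IL6 differed by -1.66 (limma adjusted p = 0.00215) and IL1B by -0.92 (0.00397), with no DBTRG array detected for either gene. CXCL2 differed by -1.48 (limma adjusted p = 0.00885) and PTGS2 by -1.43 (0.00397), with no untreated DBTRG array detected for either gene and 1 of 2 DBTRG Y15 arrays for PTGS2. CXCL8, detected throughout, differed by -1.10 (limma adjusted p = 0.00261). CXCL1 differed by -0.99 (limma adjusted p = 0.0292), with no U87 array detected. The differences of IL6, IL1B, CXCL2, PTGS2 and CXCL1 thus include undetected signals and give no size. The untreated levels of these genes differed between the lines as well, except for CXCL8 on its brighter probe and CCL2, and the part of the starting level in the differences was not tested.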

How the results depend on the processing

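Each of the 9 genes kept its direction in every comparison where it was called, under all alternatives run. The number called stayed within 1.5 times of the reported one except that median centring called 2, against 0, between U87 cells with both agents and with Y15. Leaving out 1 array gave 5 to 7 called with Y15 in DBTRG cells, 8 in U87 cells, 6 to 7 with both agents and 6 to 7 for the line difference. Where a fit kept 1 array of a group, that array was assumed to vary like the others. Arrays of the same number did not deviate together (r from -0.05 to 0.09). A fit with the number as a replicate block gave the same counts of the 9 genes in all 9 comparisons, called 2543 of all genes with Y15 in U87 cells and 4391 in DBTRG cells, and turned the uncalled line differences in untreated cells of CXCL8 (-0.07) and CCL2 (-0.03).

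Among uncalled differences, some changed sign, and the cause was not tested. By median centring, both agents against Y15 gave IL6 0.14, LIF 0.19, CCL2 0.11 and PTGS2 0.25. Untreated DBTRG against U87 cells gave CXCL8 -0.39 and CCL2 -0.46, the line difference of IL1A was 0.48, and the difference of the Y15 change with TMZ minus without was 0.15 for IL6 and 0.13 for CCL2. Of the called genes of the other lists, TOLLIP (-0.21) and PTGR1 (-0.13) turned with Y15 in U87 cells. Centring on detected probes gave, for both agents against Y15, CXCL1 -0.46 and CXCL8 -0.22, a LIF line difference of -0.06, and with TMZ minus without IL1B -0.08, CXCL1 -0.23 and CXCL8 -0.04. The LIF line difference was -0.32 with no background correction, -0.15 with offset 50 and -0.29 in the deposited log2 table, and CXCL1 was at 0 for both agents against Y15 without correction and in that table.

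Leaving out 1 array gave, between untreated lines, -0.02 to 0.11 for CXCL8 and -0.04 to 0.22 for CCL2, and line differences of -0.36 to 0.14 for IL1A and -0.11 to 0.22 for LIF. With TMZ alone it gave -0.13 to 0.09 for IL6, -0.43 to 0.06 for CXCL1 and -0.08 to 0.03 for CCL2. For CXCL1 it gave -0.05 to 0.33 with both agents against untreated cells, and -0.05 to 0.44 with TMZ minus without. For both agents against Y15 it gave -0.08 to 0.28 for IL1A, -0.19 to 0.2 for CXCL1 and -0.05 to 0.29 for CXCL2. Over all genes, leaving out 1 array called 1161 to 1524 with Y15 in U87 cells (2516 reported), 1139 to 1514 with both agents (2643), 1274 to 1694 for both agents against TMZ (2895) and 1479 to 2434 for the line difference (2286). A fit of the DBTRG arrays alone called 2602 with Y15 there (4313 reported). For both agents against Y15 (35 reported) other settings called 0 to 3715, and for TMZ minus without (0 reported) 0 to 57. Of the other genes of the lists, 157 values under an alternative lost their call, and 71 list counts moved by over 1.5 times. With 2 arrays a group, and with every gene but LIF, CXCL8 and CCL2 below detection in at least 1 whole group, small changes there could not be measured.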

Other observations

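Further members of the lists were called with Y15 in ways not described above. Among cytokines in U87 cells, IL18, an interleukin 1 family cytokine, was 2.91-fold higher with Y15 (limma adjusted p = 0.000469), and IL24, a cytokine of the IL-10 family, was at least 1.99-fold higher (0.000574). IL18 was 1.63-fold higher in DBTRG cells too (limma adjusted p = 0.0162). That DBTRG call was lost with array weights (limma adjusted p = 0.0555) and in a fit restricted to the DBTRG arrays (0.0604). It was also lost without the first DBTRG untreated array (a change of 0.45) and without the second DBTRG Y15 array (0.57). CCL26, an eosinophil chemokine, was higher by 0.89 ± 0.20 in DBTRG cells and by 1.21 ± 0.20 in U87 cells (SE; limma adjusted p = 0.00509 and 0.00191). With both agents in U87 cells CCL20 was at least 2.67-fold, IL24 at least 2.02-fold and IL12A at least 1.90-fold higher (limma adjusted p = 9.98e-05, 0.000578 and 0.000883). Among genes that carry receptor signals, PTPN11, the phosphatase SHP2, fell by 0.84 on the log2 scale with Y15 in U87 cells (SE 0.11; limma adjusted p = 0.000418), and JAK2, a kinase of cytokine receptors, was at least 1.2-fold lower (0.00681), a call lost by centring on detected probes (-0.21; 0.354) and without the second untreated array (0.055). PIAS3, an inhibitor of STAT3, fell by 0.53 in DBTRG cells and by 0.48 in U87 cells (limma adjusted p = 0.011 and 0.0284), and the DBTRG call was lost by median centring (0.133). It was also lost without the second untreated or the second Y15 array in DBTRG cells (limma adjusted p = 0.0548 and 0.0606), and the U87 call without either untreated array or without the second Y15 array (0.114 to 0.179). TOLLIP, which damps interleukin 1 receptor signalling, was higher by 1.03 ± 0.13 in DBTRG cells and by 0.46 ± 0.13 in U87 cells (limma adjusted p = 0.000215 and 0.0327). Its U87 value turned to -0.21 by median centring (limma adjusted p = 0.322). The U87 call of TOLLIP was also lost in every fit that left out 1 array, with changes of 0.38 to 0.55. IRAK1, of the same list, was at -0.45 ± 0.14 with Y15 and -0.43 ± 0.14 with both agents in U87 cells (limma adjusted p = 0.0407 and 0.0478). Both IRAK1 calls were lost by centring on detected probes (limma adjusted p = 0.268 and 0.172) and with no filter on dim probes (0.0572 and 0.0667). Every fit that left out 1 array lost them too, with changes of -0.57 to -0.32 with Y15 and -0.55 to -0.30 with both agents.

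Among prostanoid genes, AKR1C3, a prostaglandin F synthase, was 2.11-fold higher with Y15 in DBTRG cells (limma adjusted p = 8.43e-05), and PTGES3, the co-chaperone p23, fell by 0.92 (SE 0.15; 0.000772). In U87 cells the prostaglandin reductases PTGR2 and PTGR1 were higher by 1.44 ± 0.26 and 0.50 ± 0.13 (limma adjusted p = 0.0034 and 0.018). The dimmer PTGR2 probe gave 0.58 and no call (limma adjusted p = 0.127). PTGR1 turned to -0.13 by median centring (limma adjusted p = 0.599) and lost its call in 3 of 4 fits that left out 1 array (0.0753 to 0.144), all but the one without the first untreated array. TBXA2R, the thromboxane receptor, was called lower with Y15 in U87 cells (limma adjusted p = 0.00546). It was undetected on both Y15 arrays there, so no size is given. The call was lost by centring on detected probes (-0.05, limma adjusted p = 0.838). It was also lost with no background correction (-0.22, limma adjusted p = 0.0905) and in the deposited log2 table (-0.25, limma adjusted p = 0.0811). NFKBIE, an inhibitor of NF-κB, was 2.77-fold higher in DBTRG cells and 1.67-fold higher in U87 cells (limma adjusted p = 0.00023 and 0.0222). Its U87 call was lost by median centring (0.34, limma adjusted p = 0.167). CYLD, a deubiquitinase that restrains NF-κB, fell by 0.61 in U87 cells (SE 0.16, limma adjusted p = 0.0221). That call was lost in all 4 fits that left out 1 array (-0.67 to -0.55). CEBPG, a partner of other C/EBP factors, was 2.76-fold higher in DBTRG cells and 1.72-fold higher in U87 cells (limma adjusted p = 7.65e-06 and 0.000986). The U87 call of CEBPG was lost by median centring (0.09, limma adjusted p = 0.672). The mRNA-decay factors ZFP36L1 in DBTRG cells and ZFP36L2 in U87 cells were 1.70-fold and 1.78-fold higher with Y15 (limma adjusted p = 0.000735 and 0.00441), the ZFP36L2 call being lost by median centring (0.23; 0.351).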
